A study of Mus musculus with 3 samples.

Results

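Bone marrow cells selected for RNA of eosinophil granule proteins were described in 3 droplet single-cell RNA sequencing libraries from Fabp4 mutant and wild-type mice. A cell was selected when Prg2, Prg3 and Epx together gave 5 or more unique molecular identifiers (UMIs, each a counted RNA molecule) and at least 2 of Prg2, Prg3, Epx and Siglecf were detected. The search covered cells with 500 or more UMIs, 200 or more genes and under 10% of UMIs in mitochondrial genes, called kept cells below. Cells with 2% or more of their UMIs in the neutrophil genes Ltf, Ngp, Camp and Lcn2 were to be left out, but none of the cells that met the other conditions reached that share. The rule selected 121 of 17879 kept cells, or 0.677% (exact binomial 95% interval 0.562 to 0.808%). The cells were thus chosen by their UMIs of Prg2, Prg3, Epx and Siglecf, and values of these genes, and of any other gene in the selected cells beside the rest, describe the selection and are not tested.

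The groups were homozygous Fabp4 knockout, heterozygous Fabp4 knockout and wild-type mice, with 1 library each. The product of Fabp4 carries fatty acids in the cytosol of adipocytes and macrophages. The series title asks about Fabp4 in leukaemia stem cells and in normal blood stem cells, and every library pooled marrow of 2 mice. Strain, age, the deleted stretch of Fabp4 and whether the marrow carried leukaemia are not given in the sources used here. With 1 library per genotype there is no spread between animals, so each difference below compares libraries, no p-value is given, and every interval is a 95% interval that covers counting error only. Both knockout libraries were set against the same wild-type library.

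Eosinophils are granulocytes that arise in the marrow from granulocyte progenitors under the growth factors interleukin-5, interleukin-3 and GM-CSF, and under the transcription factors C/EBP-epsilon, PU.1 and GATA-1. Their precursors make granule proteins before the cells mature. Prg2 encodes major basic protein and Prg3 its homologue, both cationic toxins of the granule core, Epx encodes eosinophil peroxidase, and Siglecf encodes a sialic acid-binding inhibitory receptor of mouse eosinophils. Prg2 is also known from mast cells and basophils, and Elane, Mpo, Prtn3 and Ctsg encode the primary granule proteins of neutrophil and monocyte precursors.

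Prg3 was detected in all 121 selected cells and Epx in 2 of them, so the promoters of these 2 rule genes are shown. Capitals mark GATAA or its reverse complement TTATC, the core of the GATA factor motif. Sequences are from RefSeq for GRCm38.p6, on the gene's strand, from 250 bases before to 50 after the start that the promoter table uses, which for Prg3 lies inside the gene span given below, and 3 of the 4 rule genes matched the table.
Prg3 promoter, chr2:84987965-84988264, plus strand: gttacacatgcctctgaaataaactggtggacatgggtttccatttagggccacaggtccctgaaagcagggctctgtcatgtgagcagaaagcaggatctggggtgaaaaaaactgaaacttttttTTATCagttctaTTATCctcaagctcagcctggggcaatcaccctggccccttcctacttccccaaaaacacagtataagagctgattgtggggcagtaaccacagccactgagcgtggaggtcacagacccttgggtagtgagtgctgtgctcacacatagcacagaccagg
Epx promoter, chr11:87875487-87875786, minus strand: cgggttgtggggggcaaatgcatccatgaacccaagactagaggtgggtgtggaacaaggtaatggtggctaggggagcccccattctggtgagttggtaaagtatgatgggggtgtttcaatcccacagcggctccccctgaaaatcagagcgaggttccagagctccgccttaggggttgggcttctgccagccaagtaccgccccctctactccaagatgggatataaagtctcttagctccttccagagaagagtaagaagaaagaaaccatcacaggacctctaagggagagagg
The Prg3 window held 2 matches to the GATAA motif, both in the TTATC orientation, the Siglecf window held 1 and the Epx window held 0. On both strands, 25.4% of 32851 mouse promoters of the same length hold GATAA. The C/EBP-type motif TTGCNNAA, which overlaps no GATAA match here, was in 0 of these 3 windows and in 10.8% of all promoters. A match describes letters in the window and not a bound site. Prg2 and Prg3 are neighbours on chromosome 2, where Prg2 spans 84980461 to 84983632 and Prg3 spans 84988196 to 84996559, with 4563 bases between them.

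The libraries held 8115 homozygous, 10718 heterozygous and 9432 wild-type barcodes with 54160590, 78426908 and 77173735 UMIs, and the filter removed 46.8%, 25.8% and 40.6% of the barcodes. Fabp4 was scarce in all libraries, with 5 UMIs in homozygous, 38 in heterozygous and 50 in wild-type kept cells, and the selected cells held 0, 0 and 1 of them. This is a limited check of the labels, since the 3' tag may lie outside the deleted part. The heterozygous library stood apart by sex-linked RNA: of its 7935 other kept cells, 4501 had Y-linked UMIs without Xist and 1144 had Xist alone, whereas Xist alone was found in 3629 of 4307 homozygous and 5067 of 5516 wild-type other cells. Both Xist and Y-linked UMIs were present in 2 of 11 homozygous, 11 of 22 heterozygous and 4 of 88 wild-type selected cells, against 3.75%, 11.1% and 2.53% of kept cells. Of the selected cells, the highest Scrublet doublet scores removed 3 homozygous, 3 heterozygous and 12 wild-type cells, at settings that removed 6.48%, 8.57% and 7.55% of all kept cells. Median scores were 0.0963 homozygous, 0.0600 heterozygous and 0.0554 wild-type in selected cells, against 0.0418, 0.0400 and 0.0442 in the other kept cells. The part of doublets in the results was not tested beyond leaving these cells out. Barcodes shared by at least 2 libraries numbered 70, and 1 of them belonged to a selected cell. A single heterozygous cell held Igkc, Jchain and Igha antibody RNA at 34% of its 31484 UMIs, and results that rest on it or on the cells with both kinds of sex-linked RNA are given with and without them.

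Selected cells were scarcer in both knockout libraries than in wild type. They numbered 11 of 4318 homozygous kept cells (0.255%, interval 0.127 to 0.455%), 22 of 7957 heterozygous kept cells (0.276%, interval 0.173 to 0.418%) and 88 of 5604 wild-type kept cells (1.57%, interval 1.26 to 1.93%). The homozygous share was 1.32 percentage points below wild type (difference -1.32, Newcombe interval -1.69 to -0.960), and the heterozygous share was 1.29 points below it (difference -1.29, interval -1.67 to -0.967). These gaps exceed counting error, but their size depends on the rule. Without the cells that held both Xist and Y-linked UMIs, the shares were 0.217% homozygous, 0.155% heterozygous and 1.54% wild-type. With granule genes at 0.5% or more of a cell's UMIs in place of 5 or more UMIs, 2 homozygous, 3 heterozygous and 3 wild-type cells were left, and the shares of 0.0463%, 0.0377% and 0.0535% lay close together.

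**Figure D1:**
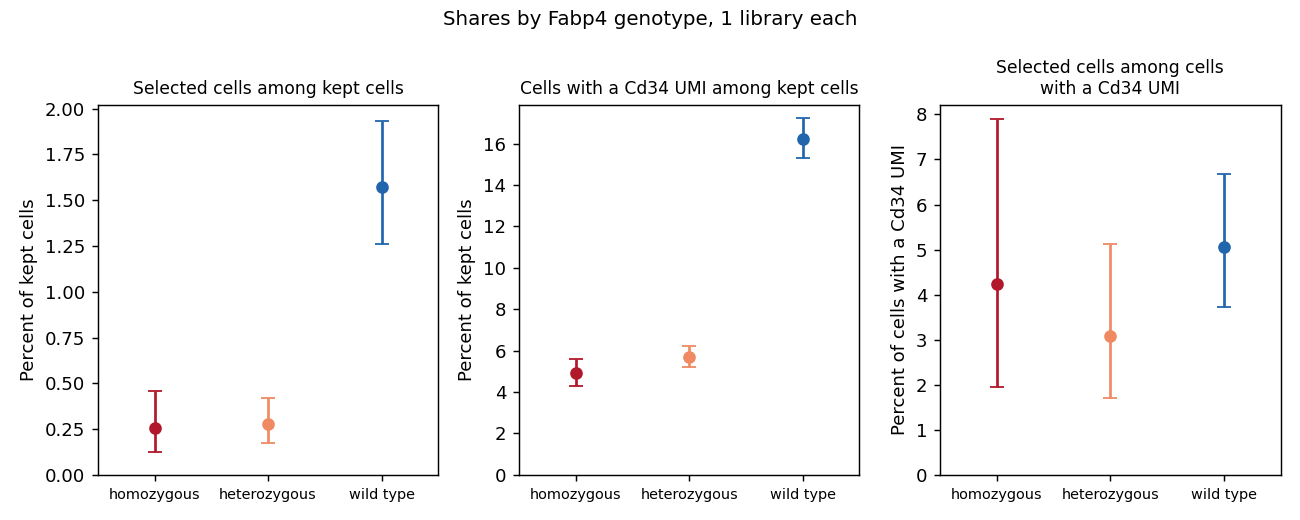
Shares of cells in the homozygous, heterozygous and wild-type libraries, with exact 95% binomial intervals as bars. No panel shows cells without a Cd34 UMI on their own. The panels show selected cells among kept cells (0.255%, 0.276% and 1.57%), cells with a Cd34 UMI among kept cells (4.91%, 5.71% and 16.2%) and selected cells among cells with a Cd34 UMI (4.25%, 3.08% and 5.05%), and the intervals of the last panel overlap.

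Cells with a Cd34 UMI, a surface protein of blood stem and progenitor cells, differed between the libraries in the same order. They made up 4.91% of homozygous (interval 4.28 to 5.6%), 5.71% of heterozygous (5.21 to 6.24%) and 16.2% of wild-type kept cells (15.3 to 17.2%). Of the selected cells, 9 of 11 homozygous, 14 of 22 heterozygous and 46 of 88 wild-type cells had a Cd34 UMI. Within the Cd34-UMI cells the selected share was 4.25% in the homozygous (1.96 to 7.91%) and 3.08% in the heterozygous library (1.70 to 5.12%). It was 5.05% in the wild-type library (3.72 to 6.69%), so the gap between libraries was within counting error there. That gate held 81.8% of homozygous, 63.6% of heterozygous and 52.3% of wild-type selected cells. The gate held 212 of 4318 homozygous, 454 of 7957 heterozygous and 910 of 5604 wild-type kept cells, so most cells lay outside it. The selected share among cells without a Cd34 UMI was not computed. The gated values therefore do not describe how the libraries differed in those cells. Among cells with 1% or more of UMIs in primary granule genes, the selected share was 0.817% homozygous, 1.56% heterozygous and 1.21% wild-type. Among cells with a Mki67 or Top2a UMI, both genes of dividing cells, it was 0.308%, 0.451% and 2.35% in the same order of libraries. The plot of shares shows the pooled and the Cd34-gated values together.

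Depth bears on these shares, since a deeper cell reaches 5 UMIs more readily. Median UMIs per selected cell were 27010 homozygous, 19642.5 heterozygous and 20110.5 wild-type, against 9017, 7641 and 9962.5 in the other kept cells of the same libraries. Among kept cells with 10000 or more UMIs the selected share was 0.471% homozygous, 0.732% heterozygous and 2.83% wild-type. After thinning every cell to 2000 UMIs, 3 homozygous, 3 heterozygous and 9 wild-type cells met the rule, or 0.0823%, 0.0405% and 0.167%. The wild-type share stayed the highest in both settings. After thinning it was 2.04 times the homozygous and 4.14 times the heterozygous share, against 6.16 and 5.68 times in the main counts. The thinned shares rest on few cells and were given no interval, so their gap was not set against counting error.

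The granule signal of most selected cells was low. Summed Prg2, Prg3 and Epx UMIs per cell were 5 at the lowest, 13 at the median and 67 at the highest in homozygous cells, 5, 13 and 76 in heterozygous cells, and 5, 10.5 and 97 in wild-type cells. The median cell thus held 0.0397% homozygous, 0.0615% heterozygous and 0.0478% wild-type of its UMIs in these genes. At the threshold, 15 cells had exactly 5 UMIs (3 homozygous, 1 heterozygous and 11 wild-type), and 23 cells with 2 or more markers missed it at 4 UMIs (1, 3 and 19). Of the 121 cells, 49 had 5 to 9 UMIs.

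Free RNA in the droplets was read from cells that should lack the granule genes. No T cell held a Prg3 or Epx UMI, and 1 homozygous T cell held 1 Prg2 UMI, but only 28 homozygous, 14 heterozygous and 19 wild-type T cells were available, which for Prg3 allows shares of up to 10.7%, 21.4% and 15.8%, at median depths of 8929.5, 7999 and 6523 UMIs. A Prg3 UMI was found in 3.37% of homozygous, 3.34% of heterozygous and 10.5% of wild-type other kept cells. Among other Cd34-UMI cells it was found in 16.3%, 16.4% and 25.8%, and in cells of neutrophil secondary granule RNA in 1.61%, 2.15% and 5.0%. The share with a Prg3 UMI thus differed between these sets of cells within each library, but the sets were not matched for depth in these shares. Single Prg3 UMIs were common outside the selection.

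The 121 cells divided by which marker accompanied Prg3. Prg2 was detected in 5 of 11 homozygous, 15 of 22 heterozygous and 67 of 88 wild-type cells, and Siglecf in 8, 10 and 41. Prg2 with Prg3 alone marked 60 cells, Prg3 with Siglecf alone marked 34, and Prg2, Prg3 and Siglecf together marked 25. Epx gave 1 UMI in each of 2 wild-type cells. Prg3 UMIs outnumbered Prg2 UMIs in 93 of the 121 cells, including 9 homozygous, 17 heterozygous and 67 wild-type cells.

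Prg2 UMIs sat in few cells. Prg2 had 0, 0 and 62 UMIs at the lowest, median and highest homozygous cell, 0, 1.5 and 73 in heterozygous cells, and 0, 2 and 74 in wild-type cells. A single cell held 49.6% of the homozygous, 29.8% of the heterozygous and 17.1% of the wild-type Prg2 UMIs. Prg3 was more even, with 4, 6 and 45 UMIs in homozygous cells, 1, 8 and 59 in heterozygous cells, and 1, 8 and 64 in wild-type cells. Summed over the selected cells, Prg3 reached 492 homozygous, 508 heterozygous and 462 wild-type UMIs per 1000000 UMIs of the summed cells (CPM), and Prg2 reached 463, 556 and 218 CPM. In the other kept cells Prg3 stood at 4.43, 6.64 and 16.6 CPM and Prg2 at 1.46, 3.98 and 2.87 CPM.

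**Figure D2:**
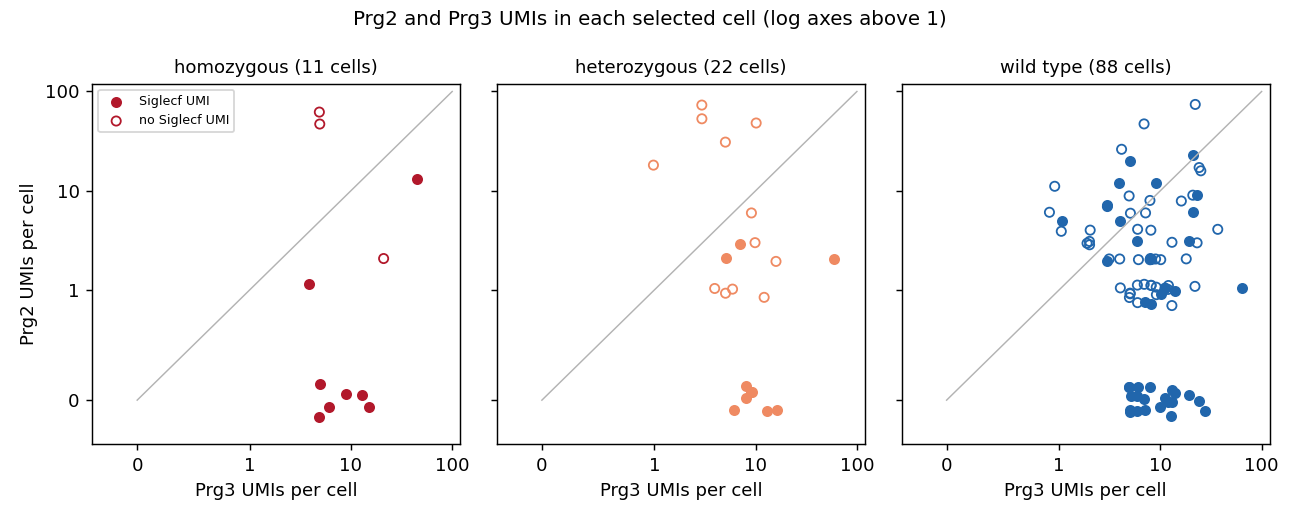
Prg3 UMIs (x axis) against Prg2 UMIs (y axis) in each selected cell of the homozygous (11 cells), heterozygous (22 cells) and wild-type (88 cells) libraries, on axes that are linear up to 1 and logarithmic above it, with points slightly displaced. Filled points had a Siglecf UMI, open points had none, and the grey line marks equal counts. Most points lie under the line, and 11 cells with 20 or more Prg2 UMIs form the top of the panels.

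The 11 cells with 20 or more Prg2 UMIs (2 homozygous, 4 heterozygous and 5 wild-type) were set beside the other 110. By the split itself they held more Prg2, at 4290 against 116 CPM in the summed UMIs of the 3 libraries. They were shallower, with a median of 9356 UMIs against 20486.5, and held 766 CPM of Prg3 against 459. Cpa3, a mast cell and basophil carboxypeptidase, stood at 102 against 0.777 CPM, from 3 of the 11 cells and 2 of the 110. Gata2, a factor of mast cells, basophils and eosinophil precursors, stood at 136 against 33.4 CPM, and Angpt1, a vessel growth factor also made by blood progenitors and mast cells, at 451 against 135 CPM. Cd34 was detected in 1 of the 11 cells and in 68 of the 110. Mpo, the neutrophil peroxidase, stood at 34 against 535 CPM, and Ctsg, the primary granule protease cathepsin G, at 25.5 against 282 CPM. Elane stood at 1149 against 2428 CPM and Prtn3 at 732 against 2558 CPM. In the wild-type library alone Elane went the other way, at 2360 against 2102 CPM, with 117 of the 128 UMIs in 1 cell. Siglecf had UMIs in 2 of the 11 cells and in 57 of the 110, a gap that the rule itself can make, since cells without Prg2 had to show Siglecf or Epx. Cebpe, the gene of C/EBP-epsilon, was at 519 against 264 CPM.

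Cells at the other end carried neutrophil-type primary granule RNA. In 13 cells (3 homozygous, 4 heterozygous and 6 wild-type) these genes took 1% or more of the UMIs, and Elane, the gene of neutrophil elastase, stood at 8743 CPM. A Siglecf UMI was present in 11 of those 13 cells, Prg2 stood at 70.6 CPM, Prg3 at 294 CPM, and Cpa3 was at 0. Across all selected cells, the 59 with a Siglecf UMI held more Elane than the 62 without (3331 against 1225 CPM), more Mpo (756 against 223 CPM) and more Ctsg (414 against 98.7 CPM). Prg2 is not compared here, because the rule asks for a second marker and so a cell without Siglecf had to hold Prg2 or Epx. Prg2 had UMIs in all 62 cells without Siglecf and in 25 of the 59 with it. The Elane, Mpo and Ctsg gaps, and the Siglecf UMIs in 11 of 13 cells, therefore cannot be told apart from a split by Prg2. These values were summed over libraries and cells and carry no test.

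The label of an eosinophil lineage was checked against eosinophil genes that the rule did not use, and most were absent. Il5ra, the interleukin-5 receptor, Ccr3, the eotaxin receptor, and the eosinophil-associated ribonucleases Ear1, Ear2, Ear6 and Ear10 had 0 UMIs in the selected cells of every library. The floor of 3 UMIs allows up to 11.1 CPM in homozygous, 6.81 CPM in heterozygous and 1.51 CPM in wild-type cells. Gata1, a factor required for eosinophil development, had 0, 0 and 1 UMI, and Il1rl1, Ptgdr2 and Hrh4, receptors of mature eosinophils for interleukin-33, prostaglandin D2 and histamine, had 0. The near-identical Ear genes share sequence, and reads that match several copies may not be counted. The cells are therefore called selected cells here.

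Genes shared with other granulocyte precursors were present. Cebpe stood at 122 CPM in homozygous, 222 CPM in heterozygous and 308 CPM in wild-type selected cells, against 118, 223 and 146 CPM in other kept cells, and the interval of the selected cells lay above the other cells in wild type but held their level in both knockout libraries. Csf2ra, the GM-CSF receptor chain, stood at 189, 152 and 180 CPM, Il3ra at 29.6, 31.8 and 22.2 CPM, and Csf2rb at 33.3, 45.4 and 34.8 CPM. Spi1, the gene of PU.1, stood at 414, 386 and 429 CPM. Of the 16 genes listed for eosinophil granules and lipid mediators, 9 in homozygous, 7 in heterozygous and 7 in wild-type selected cells had 0 UMIs. Srgn, the granule proteoglycan serglycin, stood at 2165, 2509 and 1842 CPM, Alox5ap at 322, 295 and 272 CPM and Lta4h at 385, 234 and 373 CPM, the last pair serving leukotriene synthesis. Ltc4s, the leukotriene C4 synthase of mature eosinophils, stood at 0, 0 and 0.505 CPM.

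**Figure D3:**
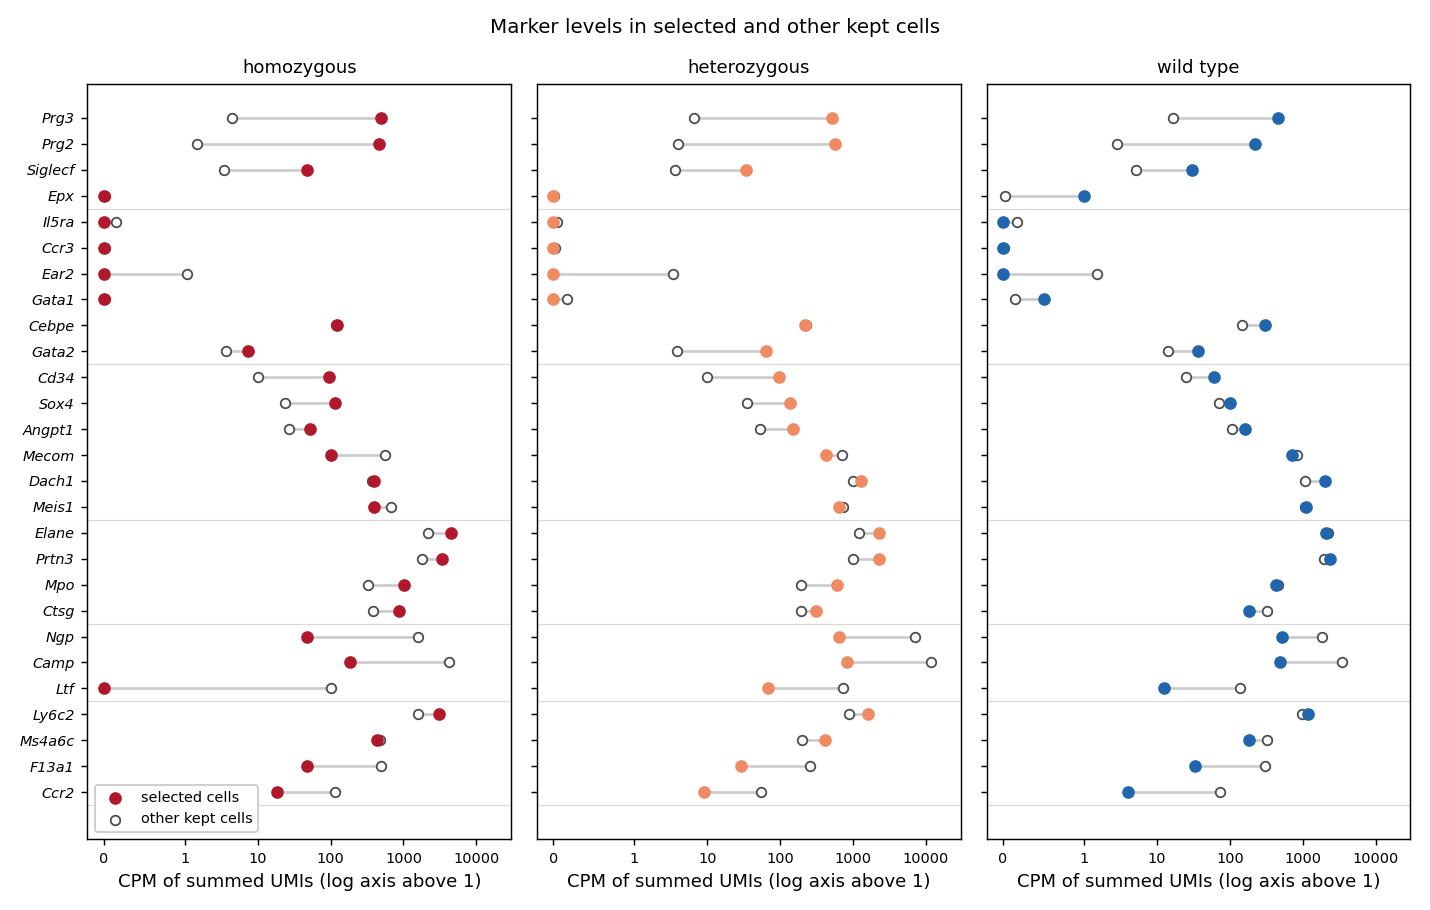
CPM of 27 marker genes (rows) in selected cells (filled) and other kept cells (open) of the homozygous, heterozygous and wild-type libraries, on an axis that is linear up to 1 CPM and logarithmic above it. Il5ra, Ccr3 and Ear2, the only Ear gene shown, lie at 0 in the selected cells, and Prg3, Cd34 and Cebpe do not.

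Marker lists of other cell types were summed in the same cells. Primary granule genes took 10865 CPM in homozygous, 6677 CPM in heterozygous and 6121 CPM in wild-type selected cells, secondary granule genes 4711, 8427 and 6519 CPM, monocyte genes 3797, 2353 and 1572 CPM, and stem and progenitor genes 1998, 3923 and 6289 CPM. The remaining lists were lower, apart from antibody RNA in 1 cell. The mast cell and basophil genes took 18.5 CPM in homozygous, 93.0 CPM in heterozygous and 22.2 CPM in wild-type selected cells, with 11, 9 and 10 of 15 genes at 0, and Mcpt8, the basophil protease, had 1, 0 and 4 UMIs. Erythroid and megakaryocyte genes took 0, 15.9 and 13.6 CPM, and T and natural killer cell genes 0, 0 and 2.52 CPM. B and plasma cell genes took 18.5, 3033 and 36.8 CPM, nearly all of the heterozygous sum from the antibody-RNA cell. That cell held 18 Prg2 UMIs, 1 Prg3 UMI and no Siglecf or Cd34 UMI, and the heterozygous share was 0.264% without it. Plasma cells outside the selection, 2 homozygous, 2 heterozygous and 5 wild-type, held 520, 0 and 164 CPM of Prg2. Dendritic cell genes took 148, 211 and 67.1 CPM.

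Selected cells were next set beside the other kept cells of their own library, gene by gene, as a description. Of 2594 genes with 20 or more UMIs in the selected cells of each library, 22 (0.848%) were at least 2-fold higher in all 3 libraries and 18 (0.694%) at least 2-fold lower. Cd34 had the largest difference among the higher genes in the knockout libraries, with log2 ratios of 3.24 in homozygous, 3.30 in heterozygous and 1.30 in wild-type cells. Auts2, a chromatin regulator, had ratios of 2.12, 1.69 and 1.84. Srm, which makes spermidine, had log2 ratios of 2.10, 2.0 and 1.41. Hspd1, the mitochondrial chaperonin, stood at 333 CPM in homozygous, 163 CPM in heterozygous and 243 CPM in wild-type selected cells, against 114, 56 and 105 CPM in other kept cells. Cd63, a tetraspanin of granule membranes, stood at 477, 411 and 528 CPM against 166, 188 and 220 CPM.

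The genes named here were chosen after their values were seen, apart from Hspd1, Cd63, Dut and Fdps, which a rule on size gave. Mcm5, a subunit of the replicative helicase, had log2 ratios of 1.31 in homozygous, 1.22 in heterozygous and 1.27 in wild-type cells, and Dut, which clears dUTP, had 1.19, 1.25 and 1.07. Fdps of isoprenoid synthesis had 1.15, 1.83 and 1.03, and the mitochondrial isocitrate dehydrogenase Idh2 had 1.71, 2.31 and 1.05. The 18 lower genes were Picalm, Samhd1, Pim1, Stk17b, Slfn2, Lgals3, Lars2, Psap, Ifitm3, Lyz2, Chil3, Lcn2, Cstdc4, S100a6, S100a9, S100a8, Camp and Stfa1, of which the rule used Lcn2 and Camp. Stfa1 has near-identical stefin A copies and is uncertain. When the comparison was made with other cells of similar depth, 4 genes were higher and 9 lower in all libraries. Of the higher genes named above, Cd34 and Auts2 stayed past 2-fold, with lowest log2 ratios of 1.07 and 1.60. The lowest was 0.86 for Srm, 0.83 for Hspd1, 0.76 for Idh2, 0.62 for Cd63, 0.58 for Mcm5, 0.57 for Fdps and 0.52 for Dut.

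S phase and secondary granule genes were described as groups. The median log2 ratio of 23 measured S phase genes was 0.93 in homozygous, 1.02 in heterozygous and 0.63 in wild-type cells, and 22 of the 23 were above 0 in every library, as were 1115 of all 2594 genes, but only 1 of the 23 was 2-fold or more higher in all 3. Against other cells of similar depth these medians were 0.56, 0.51 and 0.25. Secondary granule genes of neutrophils had medians of -1.91, -3.44 and -2.5, and 5 of the 7 measured were at least 2-fold lower in all libraries. Primary granule genes had medians of 1.05, 0.85 and 0.03 over 9 genes, so the wild-type selected cells did not stand above their library. Against other cells of similar depth the primary granule medians were 0.51, 0.27 and -0.31. G2 and M phase genes had medians of -0.02, 0.31 and 0.01, near the 0.13, 0.17 and 0.09 of all genes. At similar depth they were -0.45, -0.22 and -0.16, below the 0.10, 0.10 and 0.07 of all genes. A UMI of Mki67 or Top2a was found in 72.7% of homozygous, 68.2% of heterozygous and 73.9% of wild-type selected cells, against 89.8%, 75.6% and 76.6% of other cells of similar depth.

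Homozygous selected cells were then compared with wild-type ones over 8450 genes with 20 or more UMIs in the 2 libraries together, leaving out the rule genes. The ratio was 2-fold or more higher for 395 genes (4.67%) and 2-fold or more lower for 795 (9.41%). Counting intervals lay wholly above 0 for 248 of the 395 and wholly below 0 for 296 of the 795. The 11 homozygous cells held 270235 UMIs and the 88 wild-type cells 1981446, so 116 of the genes were at 0 in the homozygous cells, where a ratio was computed against the floor of 3 UMIs. As the wild-type cells held more UMIs, a gene could pass the filter through them alone. The larger number of lower genes was not separated from this. The median log2 ratio of all 8450 genes was -0.01. The genes named below came from a rule on size, and further list members were chosen as examples after their values were seen.

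Of the primary granule genes, Ctsg, Elane and Mpo were among those past 2-fold in the homozygous cells. Ctsg stood at 859 CPM in homozygous, 311 CPM in heterozygous and 181 CPM in wild-type cells, a homozygous over wild-type log2 ratio of 2.24 (interval 2.0 to 2.49) against 0.27 in the other kept cells. UMIs of Ctsg were found in 8 of 11 homozygous and 47 of 88 wild-type cells, and 1 cell held 34.9% of the homozygous UMIs. Elane stood at 4444, 2287 and 2109 CPM, a log2 ratio of 1.08 (0.98 to 1.17) for homozygous over wild type against -0.04 in the other cells. Per cell, Elane ran over 0, 3554 and 13624 CPM at the lowest, median and highest homozygous cell, 0, 366 and 11642 in heterozygous and 0, 927 and 16936 in wild-type cells, so the libraries overlapped fully. Mpo had a log2 ratio of 1.25 (1.05 to 1.45) against -0.52 in the other cells. Among cells with 10 or more granule UMIs, Ctsg and Elane turned to -0.99 and -0.24, so their direction depended on the cells with few granule UMIs, and Mpo stayed at 0.39.

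Of the 10 measured primary granule genes, 4 were 2-fold or more higher in homozygous cells and 0 were lower, with a median of 0.64 against -0.08 in the other kept cells. That median was -0.24 with 10 or more granule UMIs and 1.90 among cells with no Mki67 or Top2a UMI. Only 3 homozygous cells had no Mki67 or Top2a UMI, and 1 of them held 295 of their 296 Elane UMIs. Of the 9 measured monocyte genes 4 were higher and 0 lower, with a median of 0.90 against 0.66 in the other cells. Ly6c2, a surface protein of monocytes and their precursors, stood at 3027 CPM in homozygous, 1581 CPM in heterozygous and 1198 CPM in wild-type cells, a log2 ratio of 1.34 (1.22 to 1.45) for homozygous over wild type. The median cell held 2672, 1389 and 1086 CPM of Ly6c2, and the ranges overlapped. Ms4a6c, a membrane protein of monocytes, stood at 437, 408 and 185 CPM with a ratio of 1.24 (0.93 to 1.54). Klf4, a factor of monocyte differentiation, stood at 81.4, 88.5 and 26.2 CPM with a ratio of 1.63 (0.84 to 2.38), and Klf10 of the same family had a ratio of 1.79 (1.15 to 2.41).

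Of 11 measured stem and progenitor genes, 6 were 2-fold or more lower in homozygous cells and 0 higher, with a median of -1.50 against -0.67 in the other kept cells. Mecom, a zinc finger factor of stem cells, stood at 99.9 CPM in homozygous, 427 CPM in heterozygous and 707 CPM in wild-type cells, a log2 ratio of -2.82 (-3.43 to -2.27) for homozygous over wild type, and 1 cell held 66.7% of the homozygous UMIs. Meis1, a homeobox partner of HoxA proteins, stood at 389, 644 and 1099.7 CPM, a ratio of -1.50 (-1.80 to -1.22). Pbx3, another such partner, stood at 611, 951 and 1820.4 CPM. Kit, the stem cell factor receptor, had 2, 10 and 99 UMIs, a ratio of -2.76 (-5.82 to -0.86). Hoxa9 had a ratio of -0.03 and Sox4 of 0.19, and Cd34 one of 0.66 (-0.02 to 1.28) against -1.29 in the other cells. The list median stayed negative in every alternative, between -3.73 and -1.19.

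Dach1, a transcriptional repressor on the same list, had 0, 207 and 889 CPM at the lowest, median and highest homozygous cell, 0, 949 and 4524 in heterozygous, and 39.8, 1675 and 6183 in wild-type cells. Its summed log2 ratio for homozygous over wild type was -2.38 (-2.67 to -2.10), against -1.56 in the other kept cells. Olfm4, a secreted glycoprotein of granulocyte precursors, had 2 UMIs in homozygous, 57 in heterozygous and 497 in wild-type cells, a ratio of -5.08 (-8.13 to -3.22). Olfm4 was detected in 2 of 11, 15 of 22 and 57 of 88 cells, and its ratio in the other kept cells was -0.46. Epha7, an ephrin receptor, had 30, 290 and 1323 UMIs, a ratio of -2.59 (-3.16 to -2.07), and 80% of the homozygous UMIs were from 1 cell. Stfa1 (85.1 against 805 CPM for homozygous and wild type) and its relative Cstdc5 (ratio -4.13) were also lower, with the caution on near-identical copies. Among the 10 lower genes of the rule was also Dusp2, a phosphatase of MAP kinases, at -2.29. The rule further gave 3 genes with 2 or 3 homozygous UMIs, which passed the UMI filter through their wild-type UMIs. Of these, Rab11fip1 had a ratio of -3.0 (-6.06 to -1.11), the autophagy enzyme gene Atg7 one of -2.65 (-4.94 to -1.07) and Ccnyl1 one of -2.36 (-4.66 to -0.78). The higher genes of the rule besides Ctsg, Klf10 and Klf4 were Ly6a2, Tespa1, Clec2g, Ddhd2, B3gnt8, Dynlt5 and Lars, with ratios between 1.55 and 2.18, and Ly6a2 has near-identical relatives.

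Of 18 measured eosinophil transcription factor genes, 4 were 2-fold or more lower in homozygous cells and 1 was higher, with a median of -0.34 over the list. A count of 1 in 18 is close to the 4.67% of all genes that were higher. Cebpe had a ratio of -1.34 (-1.89 to -0.83), and its median cell held 122 CPM in homozygous, 127 CPM in heterozygous and 287 CPM in wild-type cells. Gata2 had 2, 28 and 72 UMIs, a ratio of -2.30 (-5.37 to -0.39) for homozygous over wild type. Ikzf2, the gene of the factor Helios, stood at 311, 368 and 1015 CPM with a ratio of -1.71 (-2.04 to -1.39) against -1.30 in the other kept cells. Gfi1, a transcriptional repressor, had a ratio of -1.91 from 2 UMIs (-4.99 to 0.01). Cebpa, a factor of myeloid progenitors, was the 1 higher gene at 1.32 (0.43 to 2.14). Of 13 receptor genes 0 were higher and 4 lower, including P2ry14, a receptor for UDP-sugars, at -2.21 against -2.13 in the other cells.

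**Figure D4:**
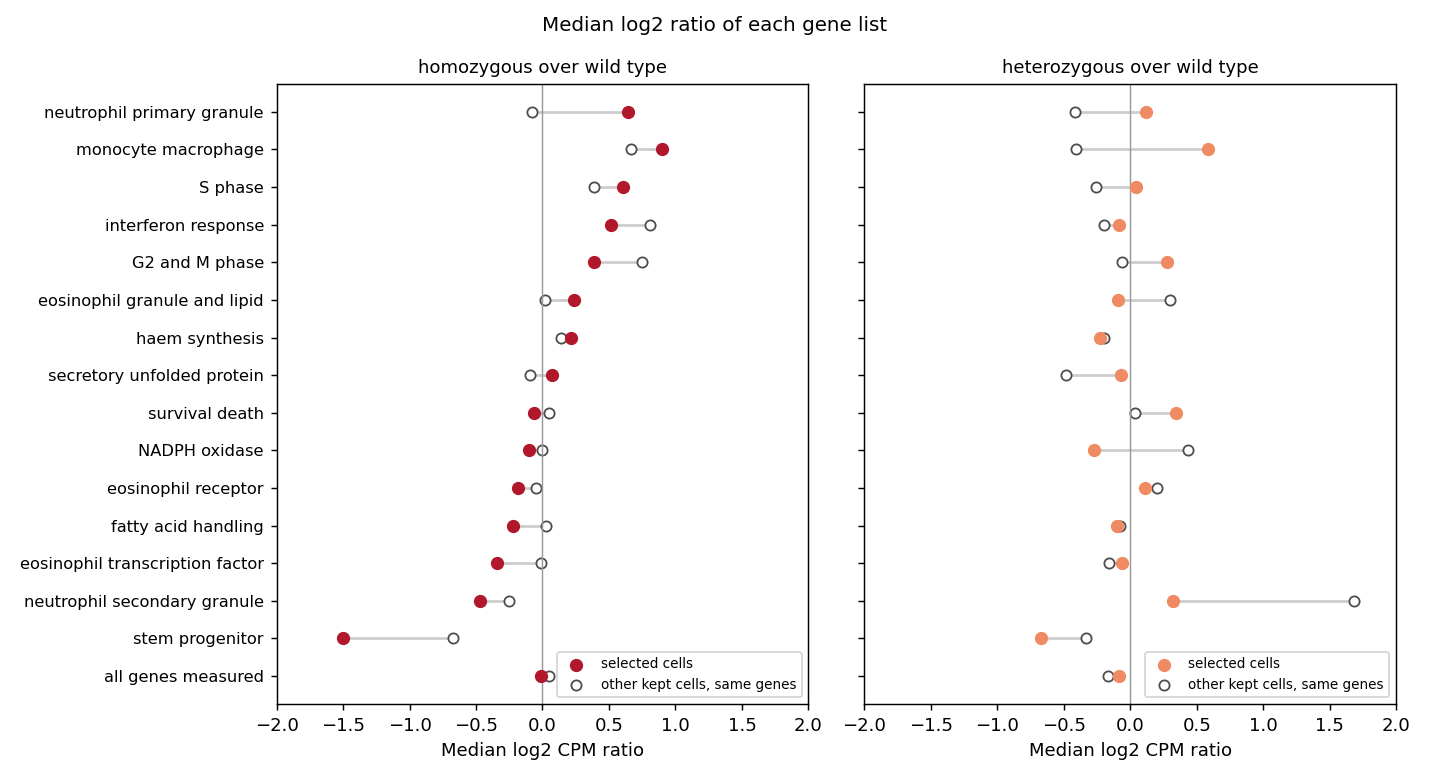
Median log2 ratio over the measured genes of each list for homozygous over wild type and heterozygous over wild type, in selected cells (filled) and for the same genes in other kept cells (open). For homozygous over wild type the stem and progenitor list lies at -1.50 and the primary granule list at 0.64, and the median of all genes lies near 0.

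Of 42 S phase genes, 9 were 2-fold or more higher in the homozygous cells and 0 lower, with a median of 0.61 against 0.39 in the other kept cells. Rrm2, the ribonucleotide reductase subunit of S phase, stood at 148 CPM in homozygous, 90.8 CPM in heterozygous and 61.6 CPM in wild-type cells, a ratio of 1.27 (0.71 to 1.79). Clspn, a replication checkpoint protein, stood at 178, 63.5 and 78.2 CPM. Among cells with no Mki67 or Top2a UMI, of which only 3 were homozygous, the S phase median was -0.54. Of 48 G2 and M phase genes 3 were higher and 5 lower, close to the 4.67% and 9.41% of all genes. Of the 48, 36 were above 0, as were 4113 of all 8450 genes. The list median was 0.39 against 0.75 in the other kept cells. Ube2c, which loads ubiquitin for exit from mitosis, was among the lower genes at -2.54 (-3.87 to -1.48). It had 7 homozygous UMIs, 5 of them in 1 cell.

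Interferon response genes had 6 of 25 higher and 2 lower in homozygous cells, beside 4.67% higher and 9.41% lower over all genes. The list median was 0.52 against 0.81 in the other kept cells. Xaf1, an interferon-induced regulator of cell death, had 10, 8 and 13 UMIs in homozygous, heterozygous and wild-type cells, a ratio of 2.5 (1.15 to 3.80) for homozygous over wild type. Bst2, the virus-tethering protein tetherin, stood at 126, 68.1 and 53.0 CPM, a ratio of 1.25 (0.64 to 1.82). Mx1, an antiviral GTPase, had a ratio of -1.45 from 1 homozygous UMI (-6.82 to 1.20).

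Fatty acid handling genes had 1 of 19 higher and 4 lower, beside 4.67% higher and 9.41% lower over all genes. A count of 1 in 19 is close to that share of higher genes. The higher gene was Fabp5, the epidermal relative of Fabp4, at 178 CPM in homozygous (interval 131 to 236), 68.1 CPM in heterozygous (45.9 to 97.2) and 39.4 CPM in wild-type selected cells (31.1 to 49.1). The Fabp5 ratio was 2.17 (1.62 to 2.71) for homozygous over wild type, against 0.72 in the other kept cells, and 0.79 (0.13 to 1.41) for heterozygous over wild type, against -0.67. UMIs of Fabp5 came from 7 of 11, 8 of 22 and 34 of 88 cells, and 1 cell held 35.4% of the homozygous UMIs. The median cell held 52.7 CPM in homozygous, 0 in heterozygous and 0 in wild-type cells. The intervals of the homozygous and wild-type levels did not overlap, but they do not cover the spread between cells. Scd2, a fatty acid desaturase, stood at 14.8, 20.4 and 34.3 CPM, and Mgll, a monoacylglycerol lipase, had 0, 11 and 45 UMIs.

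Other gene groups had few members past 2-fold between homozygous and wild-type cells, beside 4.67% higher and 9.41% lower over all genes. Of 11 secondary granule genes 0 were higher and 3 lower, among them Ngp and Camp. The list median was -0.47 against -0.25 in the other kept cells. The median cell held 196 CPM of Camp in homozygous and 192 CPM in wild-type cells, and 31.7 and 76.2 CPM of Ngp. A single wild-type cell held 35.8% of the wild-type Camp UMIs, and 1 held 25.1% of the Ngp UMIs. Of 24 secretory and unfolded protein genes 0 were higher and 1 lower, with a median of 0.07, and of 7 subunits and regulators of the NADPH oxidase none passed 2-fold in either direction (0 of 7). Of 14 survival and death genes 1 was higher, Bid, a trigger of the mitochondrial death pathway, at 1.5, and 0 were lower.

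Heterozygous selected cells were compared with wild-type ones over 8634 genes. The ratio was 2-fold or more higher for 324 (3.75%) and lower for 728 (8.43%), with intervals wholly above 0 for 236 and wholly below 0 for 276. Here too a gene could pass the filter through wild-type UMIs alone, and the larger number of lower genes was not separated from this. The median of all genes was -0.09. Without the antibody-RNA cell the counts were 313 and 684. Without the cells that held both Xist and Y-linked UMIs, 11 heterozygous cells remained and 495 genes were higher.

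Among the 10 higher genes of the rule were Fos, Fosb and Egr1, immediate early genes, which are switched on within minutes by many stimuli. Fos, a subunit of the AP-1 factor, had 141, 276 and 641 CPM at the lowest, median and highest homozygous cell, 470, 1627 and 8401 in heterozygous, and 0, 208 and 1598 in wild-type cells. The median heterozygous cell thus exceeded the highest wild-type cell. The summed Fos ratio for heterozygous over wild type was 2.89 (2.73 to 3.05), against 1.24 in the other kept cells. Fosb, its relative, had a median of 323 CPM in homozygous, 912 in heterozygous and 132 in wild-type cells, and a ratio of 2.42 (2.22 to 2.62) against 1.11. Egr1, an early growth response factor, was found in 5 of 11, 18 of 22 and 35 of 88 cells, with a ratio of 2.94 (2.52 to 3.37) against 1.64. Stxbp6 had a ratio of 2.17 and Klf6 one of 1.91 for heterozygous over wild type. Without the cells holding both Xist and Y-linked UMIs, Fos, Fosb, Egr1 and Klf6 had ratios of 2.99, 2.83, 3.76 and 2.07.

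**Figure D5:**
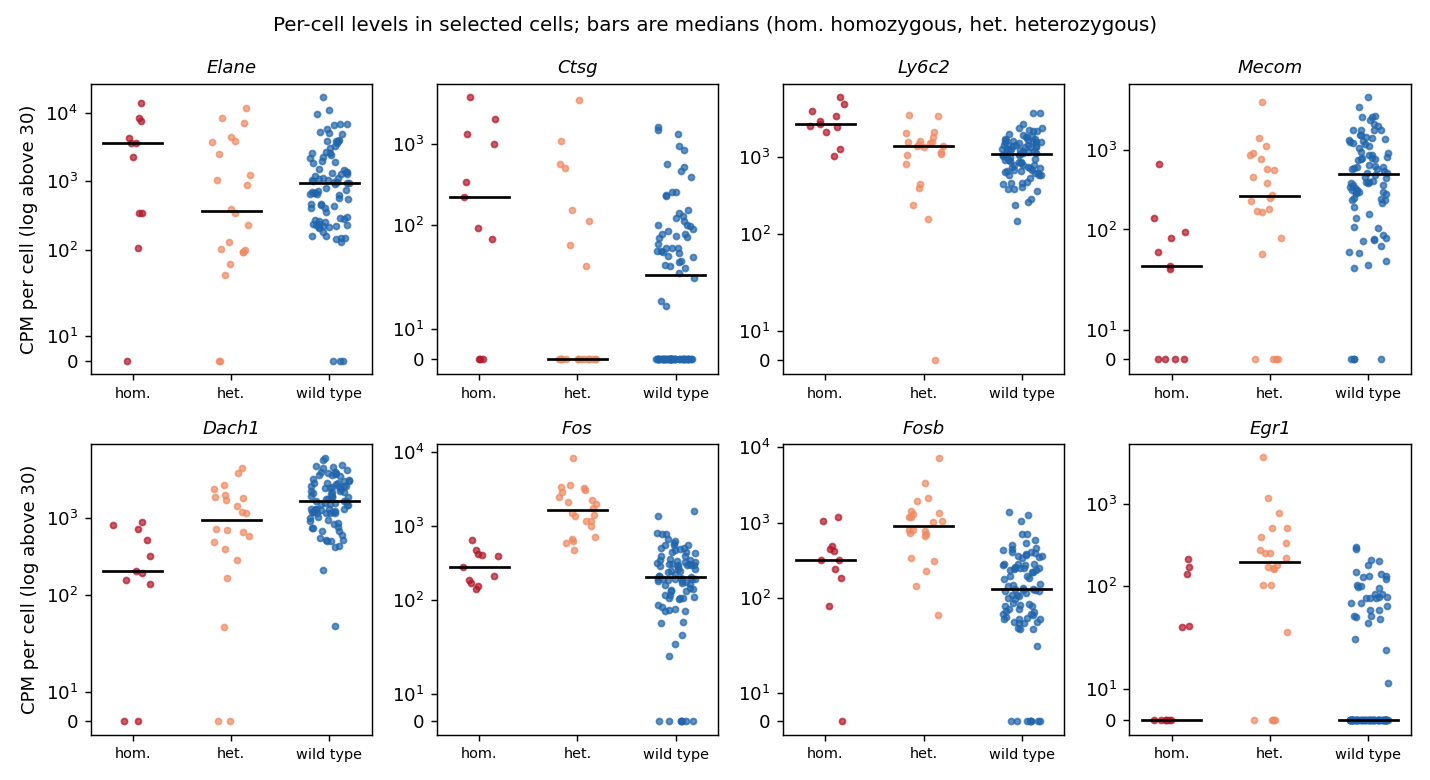
CPM in each selected cell of the homozygous, heterozygous and wild-type libraries for Elane, Ctsg, Ly6c2, Mecom, Dach1, Fos, Fosb and Egr1, on an axis that is linear up to 30 CPM and logarithmic above it, with bars at the median cell. The Fos median of heterozygous cells is 1627 CPM against 208 CPM in wild type, and the Dach1 medians run over 207, 949 and 1675 CPM.

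The chemokine genes Cxcl2, Ccl3 and Ccl4 were also among the 10, and no list of immediate early or chemokine genes was counted. Cxcl2, which attracts neutrophils, had 17 UMIs in homozygous, 118 in heterozygous and 31 in wild-type cells, a heterozygous over wild-type ratio of 4.10 (3.52 to 4.72) against 2.55 in the other kept cells. Cxcl2 was detected in 3 of 11, 19 of 22 and 23 of 88 cells. Ccl3, which attracts monocytes and granulocytes, stood at 506 CPM in heterozygous and 137 CPM in wild-type cells, a ratio of 1.88 against 0.84, which was -1.71 among cells with at least 3 of the 4 markers. Ccl4 had a ratio of 2.86, with 44.6% of its heterozygous UMIs in 1 cell. Cd74, the class II invariant chain, stood at 120 CPM with 64.2% of UMIs in 1 cell and at 46.4 CPM without the antibody-RNA cell, against 8.07 CPM in wild-type cells.

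Gene lists were counted in the same way for heterozygous over wild type, beside 3.75% higher and 8.43% lower over all genes. Of 9 monocyte genes 3 were higher, namely Klf4 at 1.75, Ms4a4c at 2.51 with 60.6% of its heterozygous UMIs in 1 cell, and Ms4a6c at 1.14, and 0 lower, with a median of 0.58 against -0.41 in the other kept cells. That median was -0.06 without the cells holding both Xist and Y-linked UMIs. Of 11 stem and progenitor genes 0 were higher and 1 lower, Kit at -1.14, with a median of -0.67 against -0.33. Primary granule genes had 0 of 9 past 2-fold in either direction and a median of 0.12, and S phase genes had 0 of 42 higher and 2 lower with a median of 0.04. Of 18 eosinophil transcription factor genes 3 were higher and 1 lower, the lower gene being Ikzf2 at -1.47. Xbp1, a factor of secretory cells, was among the higher genes at 145 CPM in heterozygous against 66.1 CPM in wild-type cells. Without the antibody-RNA cell Xbp1 stood at 78.2 CPM and was under 2-fold, so the count of 3 rests in part on that cell. P2ry14 was lower in heterozygous cells also, with 14 UMIs in heterozygous and 305 in wild-type cells and a ratio of -2.28 (-3.17 to -1.51) against -1.73 in the other kept cells. Penk, Ndrg1 and Scaper, with ratios of -2.36, -2.32 and -2.24, were also named by the rule. The remaining lower genes had 2 or 3 heterozygous UMIs and passed the UMI filter through their wild-type UMIs. Cfap43 had a ratio of -2.92 (-5.22 to -1.33), Raet1e one of -2.82 (-5.12 to -1.23) and Dph5 one of -2.76 (-5.84 to -0.85). Marchf3 and Phc3 had a ratio of -2.64 each (-4.95 to -1.04), and Slc4a1ap had one of -2.22 (-4.54 to -0.61). Secondary granule genes had 1 of 11 higher and 0 lower, with a median of 0.32 against 1.69 in the other kept cells. The higher gene was Ltf, the gene of lactoferrin, at 2.43 in selected and 2.40 in other cells, and cells of secondary granule RNA made up 11.5% of homozygous, 37.3% of heterozygous and 12.8% of wild-type kept cells. Of 21 interferon response genes 1 was higher and 5 lower. Of 20 fatty acid handling genes 0 were higher and 1 lower, the fatty acid synthase gene Fasn at -1.10. Without the antibody-RNA cell Fasn stood at 22.0 CPM in heterozygous against 43.9 CPM in wild-type cells, just under 2-fold.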

How the data were processed

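Bone marrow of 2 mice per Fabp4 genotype was pooled in each of 3 libraries made with the 10x Chromium 3' v3 kit, per the labels' protocols. Groups follow the genotype stated for each sample. The deposited matrices hold raw whole-number UMI counts for 33696 genes, made with Cell Ranger 8.0.1 per the file headers, and the submitters' processing notes name Cell Ranger, STAR and mm10. The annotation release is not given in the sources used here.

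Cells were filtered and selected by the rule in the text. UMIs were summed per library and cell set and given as CPM, the UMIs of a gene per 1000000 UMIs of the sum, with exact Poisson intervals for levels, Clopper-Pearson intervals for shares, Newcombe intervals for differences of shares and exact conditional intervals for ratios. UMIs limit PCR duplication, yet the intervals cover counting error only. Ratios with a level of 0 used 3 UMIs in that library as a floor. Ratios were computed for genes with 20 or more UMIs over the 2 libraries compared. Named genes of a genotype comparison were, per direction, the 10 with the largest CPM ratio (the lower count set to at least 3 UMIs) among genes with 50 or more UMIs over the libraries compared, a UMI in 5% or more of the cells of the higher library, and the same direction without dividing cells and with cells weighted equally. Against other cells they were the 20 with the largest lowest ratio of the 3 libraries and 50 or more UMIs in each. Genes of the rule, antigen receptors, ribosomes, mitochondria, haemoglobin and the sex chromosomes (Xist, Y-linked) and unnamed models were left out. Depth was matched by taking other kept cells within the interquartile range of UMIs of the selected cells, or by thinning to 2000 UMIs. Doublets were kept, and removing the highest Scrublet scores at 0.8% per 1000 barcodes was an alternative. Members and gene lists were chosen with earlier results of these data known, and example genes from the lists after their values were seen. Code was tested on simulated counts. Sequences and positions are from RefSeq GRCm38.p6. Tools were Python 3.11.15, numpy 2.4.6, scipy 1.17.1, pandas 2.3.3, scanpy 1.11.5 and matplotlib 3.10.9.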

Additional observations from a re-analysis of the deposited data

How the results depend on the processing

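No paired analysis was possible because each genotype had 1 library. Of 20 alternatives, 16 were planned and 4 were chosen after seeing the data, namely those without the antibody-RNA cell, without cells of both Xist and Y-linked UMIs, with kept cells of 10000 or more UMIs and with other cells of similar depth. The wild-type share was the highest in all 13 alternatives that gave a share, 1.16 to 8.48 times the homozygous and 1.42 to 10.4 times the heterozygous share. The shares of the alternatives were given no interval, and several rest on few cells. Shares beyond the main counting interval are given as homozygous, heterozygous and wild type. They were 0.0463%, 0.0377% and 0.0535% with granule genes at 0.5% of UMIs, 0.0463%, 0.0377% and 0.393% with at least 3 markers, 0.0823%, 0.0405% and 0.167% after thinning, and 0.471%, 0.732% and 2.83% among kept cells of 10000 or more UMIs. With 10 or more granule UMIs the heterozygous share was 0.163% and the wild-type share 0.946%, the heterozygous share was 0.155% without cells of both Xist and Y-linked UMIs, and the wild-type share was 0.954% with no cell filter and 1.17% with mitochondrial shares under 25%.

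Counts of genes past 2-fold, higher and lower, for homozygous over wild type were 50 and 79 with granule genes at 0.5% of UMIs and 18 and 23 after thinning. The higher count was 261 without dividing cells and 876 with a low-count filter of 5 UMIs, and a filter of 50 UMIs gave 163 and 428. For heterozygous over wild type they were 54 and 53 at 0.5% of UMIs and 11 and 25 after thinning. The higher count was 186 without dividing cells, 882 with a filter of 5 UMIs and 495 without cells of both Xist and Y-linked UMIs, and a filter of 50 UMIs gave 114 and 293. Genes higher and lower than in other kept cells in each library were 14 and 10 with 10 or more granule UMIs, 0 and 0 at 0.5% of UMIs and after thinning, 1 and 3 with at least 3 markers, 2 and 2 without dividing cells, 46 and 62 with a filter of 5 UMIs, 7 and 8 with a filter of 50 UMIs, 9 and 10 without cells of both Xist and Y-linked UMIs and 4 and 9 against other cells of similar depth. With no cell filter 36 were higher. Stricter count filters and fewer cells leave fewer genes to measure, and the cause of the other shifts was not tested.

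Among ratios past 2-fold, directions turned as follows for homozygous over wild type. At 0.5% of UMIs Camp was 0.51, Cpa3 -0.49, Ddhd2 -0.49, Elane -2.49 and Stfa1 1.10. After thinning Elane was -1.66, Ms4a6c -0.22 and Stfa1 1.58, and with 10 or more granule UMIs Ctsg was -0.99 and Elane -0.24. For heterozygous over wild type with at least 3 markers Ccl3 was -1.71 and Xbp1 -1.97, and after thinning Scaper was 2.58. The median of B and plasma cell genes turned to -0.063 with at least 3 markers, -1.63 without the highest Scrublet scores, -1.07 without the antibody-RNA cell and -2.34 without cells of both Xist and Y-linked UMIs, and that of dendritic cell genes to -1.21 without dividing cells. Smaller medians also changed sign, that of primary granule genes for homozygous over wild type to -0.24 with 10 or more granule UMIs and -2.49 after thinning, that of S phase genes to -0.54 without dividing cells, and that of monocyte genes for heterozygous over wild type to -0.06 without cells of both Xist and Y-linked UMIs. Of 46 named genes past 2-fold for homozygous over wild type, 43 kept their direction with 10 or more granule UMIs, 37 with at least 3 markers and 38 without dividing cells, as did 20 of 37 at 0.5% of UMIs and 12 of 35 after thinning, and those that neither kept nor turned it were at 0 by the floor. For heterozygous over wild type, 33 of 33, 21 and 31, 15 of 24 and 6 of 18 did so under the same settings. With 11 homozygous and 22 heterozygous cells, low genes had wide intervals, and 1 cell held most UMIs of several genes. Without dividing cells, only 3 homozygous and 7 heterozygous cells were left.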
